A study of Mus musculus with 18 samples.

Results

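Imprinted genes that regulate growth, other than those of the Peg3 domain, were followed across NeuT and BALB/c marrow preparations. The genes were listed by name: Igf2, Dlk1, Cdkn1c, Grb10, Plagl1, Mest, Ndn, Peg10, Sgce and H19. Of the 10 genes, 9 had a probe set, each exactly 1, among 19505 genes with a symbol, and H19 was not analysed here. None of the 9 passed the test between NeuT and BALB/c preparations at 12 or at 24 weeks of age, between the ages, or over all groups.

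RNA was measured on 18 arrays, 1 per mouse, from preparations labelled as bone marrow mesenchymal cells, which were purified from leg bones by bead depletion of cells that carry CD45, Ter119, B220 and other blood antigens. The groups were 5 tumour-bearing NeuT and 5 control BALB/c mice of 12 weeks, and 4 tumour-bearing NeuT and 4 control BALB/c mice of 24 weeks. The labels place the NeuT mice in an early stage of breast tumorigenesis at 12 weeks and in a late stage at 24 weeks. NeuT mice are transgenic for an activated form of rat Erbb2, the HER2 receptor gene, whose promoter the labels do not name. What the transgene does and what the tumours do cannot be told apart, nor from any other difference between the NeuT and control mice. The mice of each age were different animals, and age cannot be told apart from any batch that the ages did not share.

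Imprinted genes are expressed from the maternal or the paternal copy only, according to DNA methylation set in the germ line. Many of them act on fetal growth: genes active on the paternal copy, such as Igf2, Dlk1, Mest and Peg10, are mostly known for promoting growth, and genes active on the maternal copy, such as Cdkn1c, Grb10 and H19, for restraining it. Several are switched down in most tissues after birth. In mouse marrow, H19 and Cdkn1c are known for roles in keeping haematopoietic stem cells quiescent, and Dlk1 marks progenitors that have not yet become fat cells. The arrays read total transcript and do not tell the parental copies apart.

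Promoter windows from RefSeq (GRCm38.p6, 250 bases before to 50 after a start) were found for 6 of the 10 genes, 12 windows in all. The windows of Plagl1 and Dlk1 are shown because these genes had the highest and the lowest difference between NeuT and BALB/c at 12 weeks. They also differ in CpG content, and CpG dinucleotides, the sites of DNA methylation in mammals, are in capitals. The Plagl1 window lies at chr10:13090582-13090881 on the plus strand and the Dlk1 window at chr12:109452573-109452872 on the plus strand.
Plagl1: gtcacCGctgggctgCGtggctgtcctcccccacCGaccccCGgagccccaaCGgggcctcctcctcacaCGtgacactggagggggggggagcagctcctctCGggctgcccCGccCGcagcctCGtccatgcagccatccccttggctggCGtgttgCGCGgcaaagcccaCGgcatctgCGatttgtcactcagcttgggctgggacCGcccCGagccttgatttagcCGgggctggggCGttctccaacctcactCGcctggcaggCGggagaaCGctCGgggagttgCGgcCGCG
Dlk1: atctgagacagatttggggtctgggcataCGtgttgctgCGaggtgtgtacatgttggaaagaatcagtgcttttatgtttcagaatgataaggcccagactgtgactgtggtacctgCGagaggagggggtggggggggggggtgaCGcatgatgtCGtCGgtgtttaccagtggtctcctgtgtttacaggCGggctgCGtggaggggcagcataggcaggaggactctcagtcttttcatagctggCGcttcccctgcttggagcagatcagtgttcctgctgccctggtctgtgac
The Plagl1 window holds 26 CpG, a number that 16.9% of the 32851 windows of the table reach. The Dlk1 window holds 9 CpG, a number that 45.8% of windows reach, and the median window holds 7. The Grb10 window with the most CpG (chr11:12037371-12037670, minus strand) holds 45, which 1.93% of windows reach. TGCCGC, the core of the motif bound by the imprint-maintaining zinc-finger protein ZFP57, was searched on both strands. It occurs in 5 of the 12 windows, those of Plagl1, Grb10, Igf2 and Mest, against 11.6% of all windows. Of the 5, 2 are Mest windows that overlap and share their matches, while the Dlk1 window has no match. A match is a run of letters and no evidence of binding.

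The arrays were alike in scale, with gene medians of 8.43 to 8.56 on the log2 scale and correlations between arrays of 0.978 to 0.997. Lowest in correlation to the rest were replicate 4 of NeuT at 12 weeks, replicate 1 of NeuT at 24 weeks and replicate 3 of BALB/c at 24 weeks. The number of arrays limits the precision, and the table holds no detection calls. The negative controls had a 95th percentile of 10.42. Signals passed it on every array for Elane, a neutrophil granule protease (13.62 to 14.24), Mpo of neutrophil precursors (13.45 to 14.02) and Cd79a, a B-cell receptor subunit (10.48 to 12.37), and on 16 of 18 arrays for Klf1 of the erythroid line (9.97 to 11.22). The stromal markers Cxcl12 (9.04 to 9.45), Col1a1 (9.69 to 10.23), Col1a2 (8.25 to 8.86) and Pdgfrb (7.96 to 8.92) were above the median of the controls (7.34) on every array and above that percentile on none. Lepr, the leptin receptor of reticular stroma, read 5.20 to 5.80, under the control median on every array, and the muscle genes Acta1 (7.98 to 8.47) and Ckm (7.19 to 7.60) never reached the percentile. Of the 17 stromal marker genes measured, 0 exceeded it on every array, and 3 were under the control median on every array. Each probe set is set against the controls only, since signals of different probe sets are not comparable levels. In bulk samples such as these, fewer cells of a type and less RNA per cell cannot be told apart.

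All 9 imprinted growth genes gave signals within the range of the negative controls. Igf2, Dlk1, Cdkn1c, Grb10, Plagl1, Mest and Peg10 were above the control median on every array, Sgce on 5 of 18 arrays, and Ndn on none, and no gene was above the 95th control percentile on any array. Background probes also grow brighter with their G and C content, averaging 3.77 at 3 and 9.97 at 25 G or C bases of 25 (log2 signals). A difference in these signals therefore compares 1 probe set between arrays, and how large a change in transcript level lies behind it is not known.

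**Figure D1:**
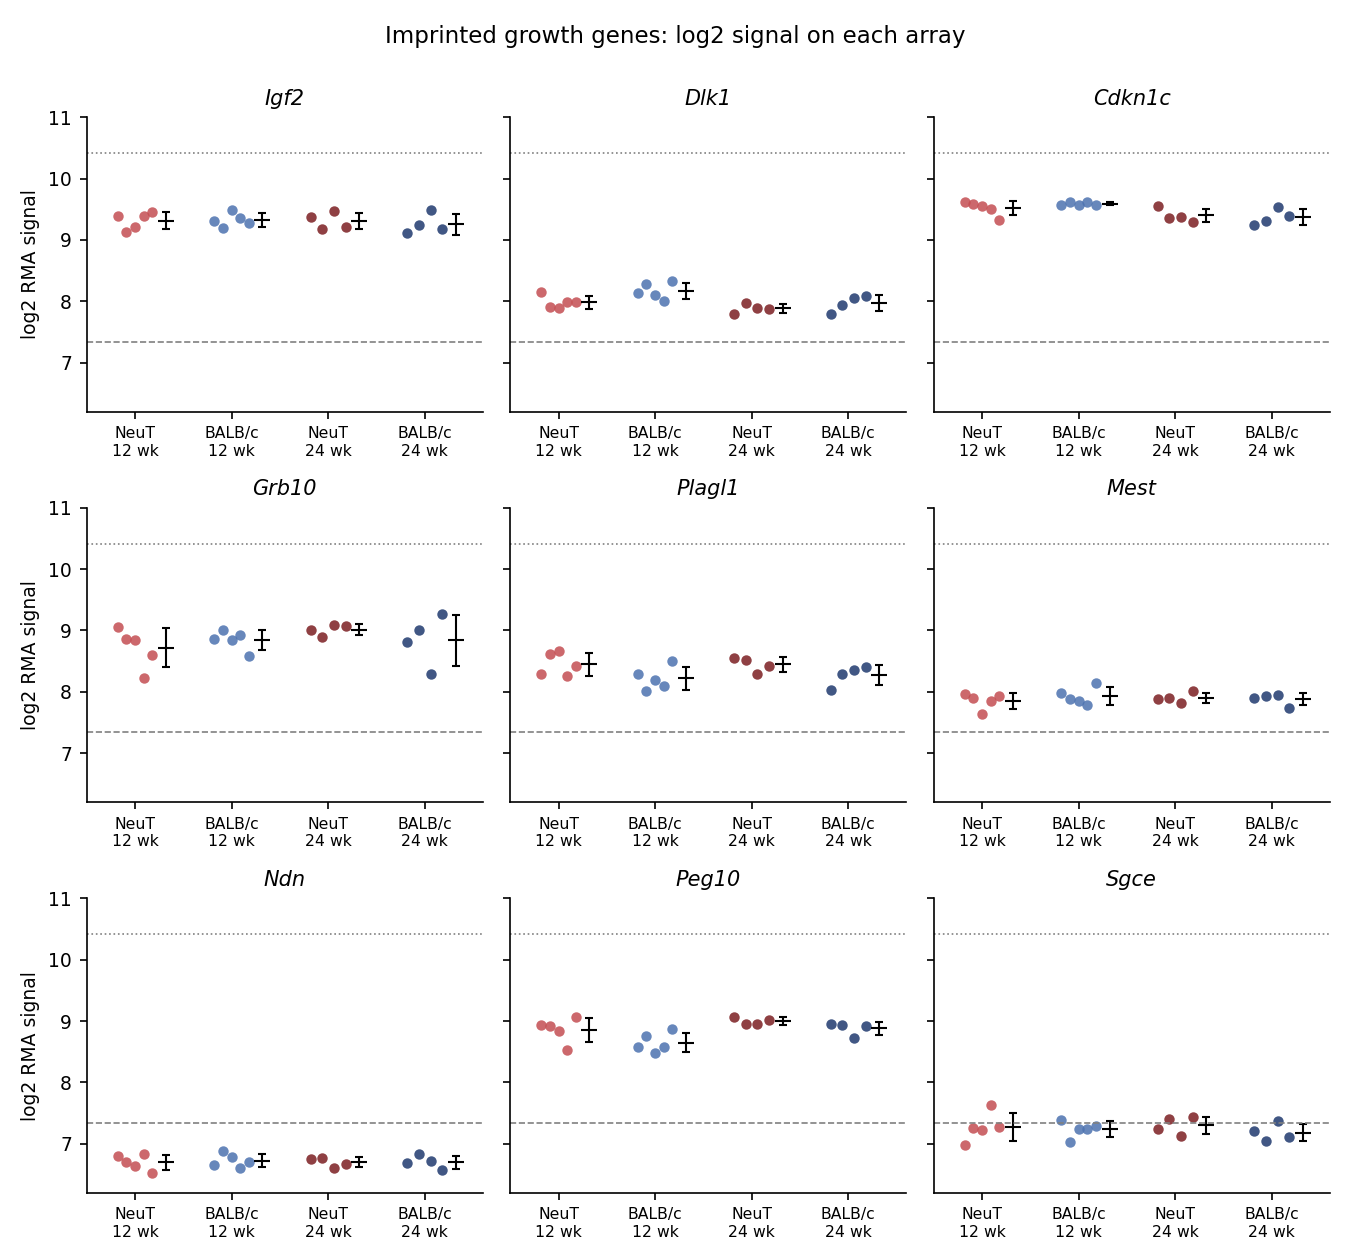
Log2 RMA signal (vertical axis) of each imprinted growth gene on every array, with NeuT (red) left of BALB/c (blue) at 12 and 24 weeks. Points are arrays, crosses and bars the group mean and SD, the dashed line the median (7.34) and the dotted line the 95th percentile (10.42) of the negative controls. In each NeuT and BALB/c pair the points overlap.

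Igf2, the fetal insulin-like growth factor, read 9.13 to 9.45 in NeuT and 9.19 to 9.49 in BALB/c preparations at 12 weeks, and 9.18 to 9.47 in NeuT and 9.11 to 9.49 in BALB/c preparations at 24 weeks. The log2 difference, NeuT minus BALB/c, was -0.014 at 12 weeks (95% interval -0.19 to 0.16, limma adjusted p = 0.941) and 0.059 at 24 weeks (-0.14 to 0.26, adjusted p = 0.837). Dlk1, a membrane protein of the Notch ligand family that is also shed, read 8.15, 7.91, 7.88, 7.99 and 7.98 on the NeuT arrays of 12 weeks, against 8.14, 8.28, 8.11, 7.998 and 8.33 on the BALB/c arrays. The groups overlapped, and 4 of 5 NeuT arrays lay below every BALB/c array. The difference was -0.19 ± 0.078 (SE, interval -0.35 to -0.027), with an unadjusted p of 0.0241, an adjusted p of 0.167 in limma and an exact two-sided permutation p of 0.0556. At 24 weeks Dlk1 read 7.79, 7.97, 7.89 and 7.88 in NeuT and 7.79, 7.94, 8.04 and 8.08 in BALB/c preparations. Those groups overlapped, with a difference of -0.084 (-0.26 to 0.096, limma adjusted p = 0.719).

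Of the growth brakes, Cdkn1c encodes p57, which blocks cyclin-dependent kinases in G1. It read 9.61, 9.58, 9.56, 9.51 and 9.32 in NeuT and 9.58, 9.62, 9.57, 9.62 and 9.56 in BALB/c preparations of 12 weeks. The single low array was NeuT replicate 5, and the difference of -0.074 did not pass (-0.22 to 0.077, limma adjusted p = 0.588). Without that array the difference was -0.025 (adjusted p = 0.867). At 24 weeks it read 9.56, 9.36, 9.38 and 9.30 in NeuT and 9.24, 9.31, 9.54 and 9.39 in BALB/c preparations, a difference of 0.026 (-0.14 to 0.19, limma adjusted p = 0.923).
Grb10, an adaptor that damps insulin and IGF1 receptor signalling, had the widest spread. On the 12-week arrays it read 9.05, 8.86, 8.84, 8.23 and 8.60 in NeuT and 8.86, 9.001, 8.84, 8.93 and 8.59 in BALB/c preparations. On the 24-week arrays it read 9.005, 8.89, 9.09 and 9.08 in NeuT and 8.81, 9.01, 8.28 and 9.26 in BALB/c preparations. Its lowest signals, 8.23 and 8.28, came from replicate 4 of NeuT at 12 weeks and replicate 3 of BALB/c at 24 weeks, both among the 3 arrays of lowest correlation. The difference was -0.13 at 12 weeks (-0.43 to 0.17, limma adjusted p = 0.648) and 0.17 at 24 weeks (-0.16 to 0.51, adjusted p = 0.685). Without the 3 arrays of lowest correlation the differences were -0.0049 at 12 weeks and -0.011 at 24 weeks, with the sign turned at 24 weeks.

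Plagl1 encodes a zinc-finger transcription factor that, in mouse, controls a network of imprinted genes and slows the cell cycle. Its 12-week arrays read 8.28, 8.62, 8.67, 8.26 and 8.42 in NeuT and 8.29, 8.01, 8.19, 8.10 and 8.51 in BALB/c preparations. The groups overlapped, with 2 of 5 NeuT arrays above every BALB/c array. The difference of 0.23 ± 0.10 (SE, interval 0.023 to 0.44) had an unadjusted p of 0.0314, an adjusted p of 0.190 in limma and an exact permutation p of 0.103. At 24 weeks the arrays read 8.56, 8.52, 8.29 and 8.42 in NeuT and 8.03, 8.29, 8.36 and 8.402 in BALB/c preparations, and 3 of 4 NeuT arrays lay above every BALB/c array. The difference there was 0.18 (-0.057 to 0.41, limma adjusted p = 0.526).
Mest, a paternally expressed gene of the alpha/beta-hydrolase fold family, read 7.64 to 7.96 in NeuT and 7.79 to 8.15 in BALB/c preparations at 12 weeks, with a difference of -0.079 (-0.24 to 0.084, limma adjusted p = 0.591). At 24 weeks it read 7.82 to 8.02 in NeuT and 7.74 to 7.95 in BALB/c preparations, with a difference of 0.027 (-0.15 to 0.21, limma adjusted p = 0.927).
Ndn, which encodes the MAGE-family protein necdin, known as a brake on cell division in neurons, stayed between 6.53 and 6.88 on all arrays. Its differences were -0.028 at 12 weeks (-0.18 to 0.13, limma adjusted p = 0.860) and 0.0050 at 24 weeks (-0.17 to 0.18, adjusted p = 0.986), between signals that lay under the control median.

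Peg10, a gene derived from a retrotransposon that mouse embryos need to form the placenta, and Sgce, which encodes epsilon-sarcoglycan, are neighbours that start next to each other and share an imprinted control region. Peg10 read 8.93, 8.92, 8.84, 8.53 and 9.06 in NeuT and 8.57, 8.76, 8.47, 8.58 and 8.86 in BALB/c preparations of 12 weeks. The groups overlapped, with 3 of 5 NeuT arrays above every BALB/c array and NeuT replicate 4 among the lowest. The difference was 0.21 ± 0.090 (SE, interval 0.021 to 0.39), with an unadjusted p of 0.0308, an adjusted p of 0.188 in limma and an exact permutation p of 0.0952. At 24 weeks Peg10 read 9.07, 8.95, 8.95 and 9.02 in NeuT and 8.96, 8.93, 8.73 and 8.93 in BALB/c preparations, a difference of 0.11 (-0.094 to 0.32, limma adjusted p = 0.661, exact permutation p = 0.0857).
Sgce read 6.99 to 7.63 in NeuT and 7.02 to 7.38 in BALB/c preparations at 12 weeks (difference 0.038, -0.17 to 0.24, limma adjusted p = 0.856). At 24 weeks it read 7.12 to 7.43 in NeuT and 7.04 to 7.36 in BALB/c preparations (difference 0.12, -0.12 to 0.35, limma adjusted p = 0.695). Over the 18 arrays, with group means removed, the Pearson r between Peg10 and Sgce was -0.57, and without replicate 4 of NeuT at 12 weeks alone it was -0.25. Among the 36 pairs of the 9 genes r ran from -0.77 (Grb10 and Sgce, -0.65 without that array) to 0.43 (Dlk1 and Mest, 0.26 without replicate 5 of BALB/c at 12 weeks), over arrays that share their normalisation.

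At 12 weeks 0 of the 9 genes passed limma's test at an adjusted p of 0.05, where 3.84% of all genes did. At an unadjusted p of 0.05, Dlk1, Plagl1 and Peg10 passed, 3 of 9, against 21% of all genes, and by the exact permutation test 0 did, against 22.7%. In 0 of the 9 genes did the groups not overlap, against 7.46% of all genes. The 9 differences ran from -0.19 to 0.23, with 3 above and 6 below 0 and a median of -0.028, against a median of -0.025 over all genes. Their intervals reached at most from -0.43 to 0.44.
At 24 weeks 0 of 9 passed limma's test, against 1.4% of all genes, and 0 passed at an unadjusted p of 0.05 (13.2% of all genes) or by the exact permutation test (6.72%), which at this size passes only where the groups do not overlap. The differences ran from -0.084 to 0.18, with 8 above and 1 below 0 and a median of 0.059, against -1e-04 over all genes. The smallest p that the exact test could reach was 0.00794 at 12 weeks and 0.0286 at 24 weeks.

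**Figure D2:**
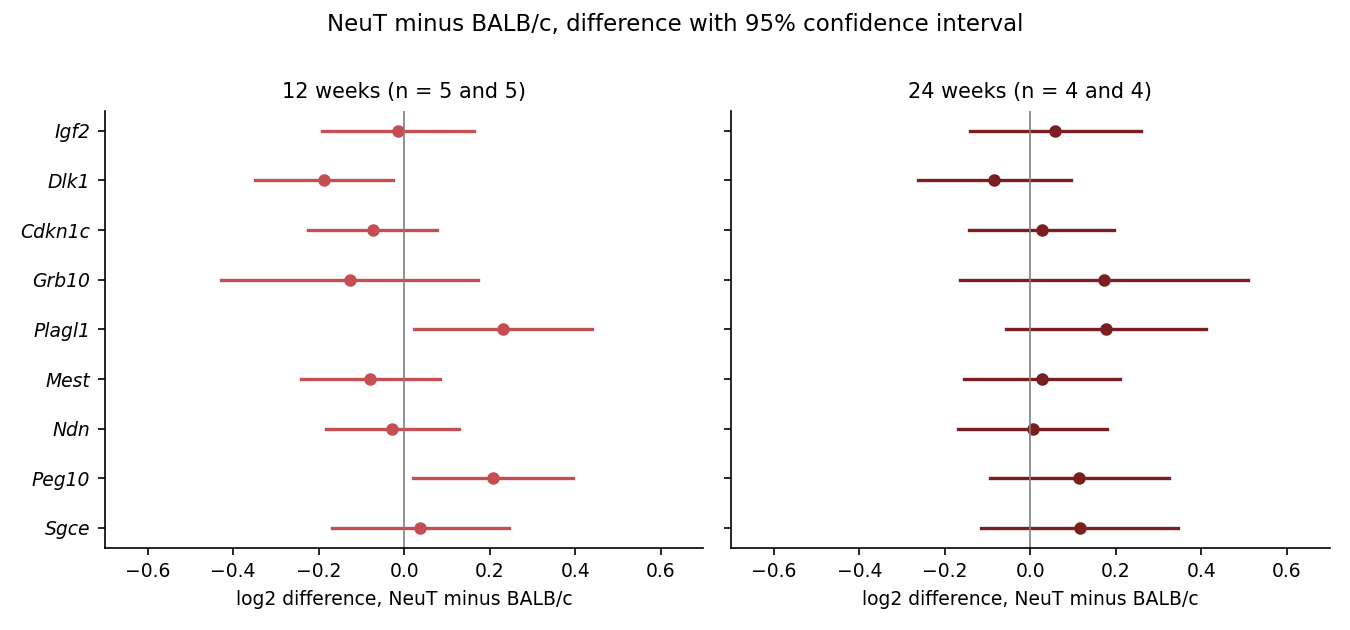
Log2 difference, NeuT minus BALB/c (horizontal axis), of each imprinted growth gene at 12 weeks (left, n = 5 and 5) and 24 weeks (right, n = 4 and 4), with 95% intervals as bars. The intervals of Dlk1, Plagl1 and Peg10 exclude 0 at 12 weeks, before adjustment over all genes, and none does at 24 weeks.

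The calls at 12 weeks changed with array weights and without the 3 arrays of lowest correlation. No fit without 1 array had a listed gene past the threshold at 12 weeks. With array weights Peg10 (0.26, limma adjusted p = 0.0263) and Plagl1 (0.29, adjusted p = 0.0434) passed, 2 of 9, where 10.7% of all genes passed. Without the 3 arrays of lowest correlation Peg10 passed (0.29, adjusted p = 0.0340), 1 of 9, where 4.48% of all genes did. Of these 3, only NeuT replicate 4 is an array of 12 weeks. Without it alone Peg10 had the same difference of 0.29 and did not pass (limma adjusted p = 0.0713), where 1.55% of all genes did.
Blood cell markers were read on the same arrays. The mean log2 signal of 14 neutrophil markers was 11.18 to 12.19 in NeuT and 11.04 to 11.54 in BALB/c preparations at 12 weeks, and 11.43 to 12.17 in NeuT and 11.01 to 11.42 in BALB/c preparations at 24 weeks. That of 8 B-cell markers was 9.59 to 10.90 in NeuT and 10.84 to 11.04 in BALB/c preparations at 12 weeks, and 9.83 to 10.88 in NeuT and 10.92 to 11.20 in BALB/c preparations at 24 weeks. In both lists the groups overlapped at 12 weeks and not at 24 weeks. At 12 weeks the groups did not overlap in 8 monocyte and macrophage markers (8.67 to 9.13 in NeuT, 8.45 to 8.62 in BALB/c) or in 7 erythroid markers (11.10 to 11.52 in NeuT, 11.53 to 11.73 in BALB/c). The same held for 5 megakaryocyte markers (9.78 to 10.18 in NeuT, 10.20 to 10.46 in BALB/c) and 6 endothelial markers (8.20 to 8.31 in NeuT, 8.34 to 8.52 in BALB/c). These separations did not hold at 24 weeks, where the groups overlapped in the monocyte, erythroid, megakaryocyte and endothelial lists. Monocyte and macrophage markers then read 8.67 to 9.04 in NeuT and 8.48 to 8.72 in BALB/c, and erythroid markers 10.53 to 11.47 and 11.15 to 11.41. Megakaryocyte markers read 10.01 to 10.44 in NeuT and 10.04 to 10.11 in BALB/c, and endothelial markers 8.34 to 8.47 and 8.19 to 8.45. In both, the group mean was higher in NeuT, the reverse of 12 weeks. For the 17 stromal markers the mean was 8.06 to 8.14 in NeuT and 8.07 to 8.19 in BALB/c preparations at 12 weeks, and 8.10 to 8.31 in NeuT and 7.98 to 8.11 in BALB/c preparations at 24 weeks. For 10 haematopoietic stem and progenitor markers it was 9.24 to 9.42 in NeuT and 9.19 to 9.31 in BALB/c preparations at 12 weeks. At 24 weeks it was 9.39 to 9.57 in NeuT and 9.18 to 9.40 in BALB/c preparations. These groups overlapped at both ages, with the higher group mean in NeuT. The marker lists were not tested.
With the neutrophil and B-cell means as covariates, 0 of the 9 genes passed in any of the 5 contrasts, at 12 weeks with 0.0205% and at 24 weeks with 0.0103% of all genes passing. The covariates themselves did not overlap between the groups at 24 weeks, and nearly all calls of the main fit between NeuT and BALB/c ended here. A call between NeuT and BALB/c that ends in this fit is therefore not particular to its gene. Between the ages the covariates raised the share of all genes that passed. It was 2.05% against 0.579% in the main fit in BALB/c, and 0.138% against 0.0359% in NeuT. Whether blood cell content lies behind a difference was not tested. The 12-week differences in that fit were 0.35 for Peg10 (limma adjusted p = 0.424), 0.25 for Plagl1 (adjusted p = 0.649) and -0.14 for Dlk1 (adjusted p = 0.725). In the F test of that fit Peg10 passed, 1 of 9, against 1.85% of all genes.

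Peg3, an imprinted zinc-finger gene, averaged 10.65 ± 0.34 in NeuT and 6.63 ± 0.16 in BALB/c preparations at 12 weeks, and 10.69 ± 0.045 in NeuT and 6.61 ± 0.26 in BALB/c preparations at 24 weeks (log2 signal, SD), a difference of 4.01 and 4.08 (limma adjusted p = 8.07e-16 and 6.76e-15). Its neighbour Usp29 differed by 1.08 and 0.85 (limma adjusted p = 9.02e-06 and 0.00264), at signals under the control median, and its 24-week call ended in a fit of those groups alone. These intervals, 3.75 to 4.28 for Peg3 and 0.85 to 1.31 for Usp29 at 12 weeks, lie above those of all 9 imprinted growth genes.

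Whether the difference between NeuT and BALB/c changed with age was tested as an interaction. It passed for 0 of the 9 genes at an adjusted p of 0.05 in limma, against 0.0103% of all genes, and for 0 at an unadjusted p of 0.05, against 6.5%. The interaction ran from -0.093 for Peg10 to 0.30 for Grb10, whose interval of -0.15 to 0.75 was the widest, and the adjusted p from 0.881 to 0.980. The Grb10 value was -0.0057 without the 3 arrays of lowest correlation, and 0.11 to 0.44 in fits without 1 array, lowest without replicate 3 of BALB/c at 24 weeks.

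Between the ages, 24 minus 12 weeks, 0 of 9 genes passed in NeuT preparations, against 0.0359% of all genes, and 0 passed at an unadjusted p of 0.05 (12.6% of all genes) in limma or by the exact permutation test (11.7%). The ages overlapped in all 9, where 5.08% of all genes did not overlap. Grb10 had the highest value, 0.30 (-0.022 to 0.62, limma adjusted p = 0.438), followed by Peg10 with 0.14 (-0.053 to 0.34, adjusted p = 0.579).
In BALB/c preparations 0 of 9 passed, against 0.579% of all genes. At an unadjusted p of 0.05 Cdkn1c, Dlk1 and Peg10 passed, 3 of 9, against 15.3% of all genes. By the exact permutation test Cdkn1c and Peg10 passed, 2 of 9, against 14.4% of all genes, a share counted on absolute differences of means. Cdkn1c differed by -0.22 ± 0.077 (SE, interval -0.38 to -0.058, limma adjusted p = 0.166, exact permutation p = 0.0159, the smallest this test can give). Its 4 arrays of 24 weeks, at 9.24 to 9.54, all lay below the 5 arrays of 12 weeks, at 9.56 to 9.62, and it was the only 1 of the 9 genes whose groups did not overlap, against 6.95% of all genes. Dlk1 differed by -0.20 (-0.37 to -0.034, limma adjusted p = 0.227, exact permutation p = 0.0635), and Peg10 by 0.24 (0.040 to 0.44, adjusted p = 0.226, exact permutation p = 0.0476). With array weights Cdkn1c (-0.25, limma adjusted p = 0.0136) and Peg10 (0.29, adjusted p = 0.0180) passed, 2 of 9, where 12.2% of all genes did. Without the 3 arrays of lowest correlation both passed too (-0.27, adjusted p = 0.0325, and 0.29, adjusted p = 0.0408), where 6.55% of all genes did. Of these 3, only BALB/c replicate 3 of 24 weeks is in this comparison. Without it alone neither passed (limma adjusted p = 0.0508 and 0.0952), where 3.02% of all genes did. The BALB/c and NeuT comparisons at 12 and 24 weeks share these arrays.

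**Figure D3:**
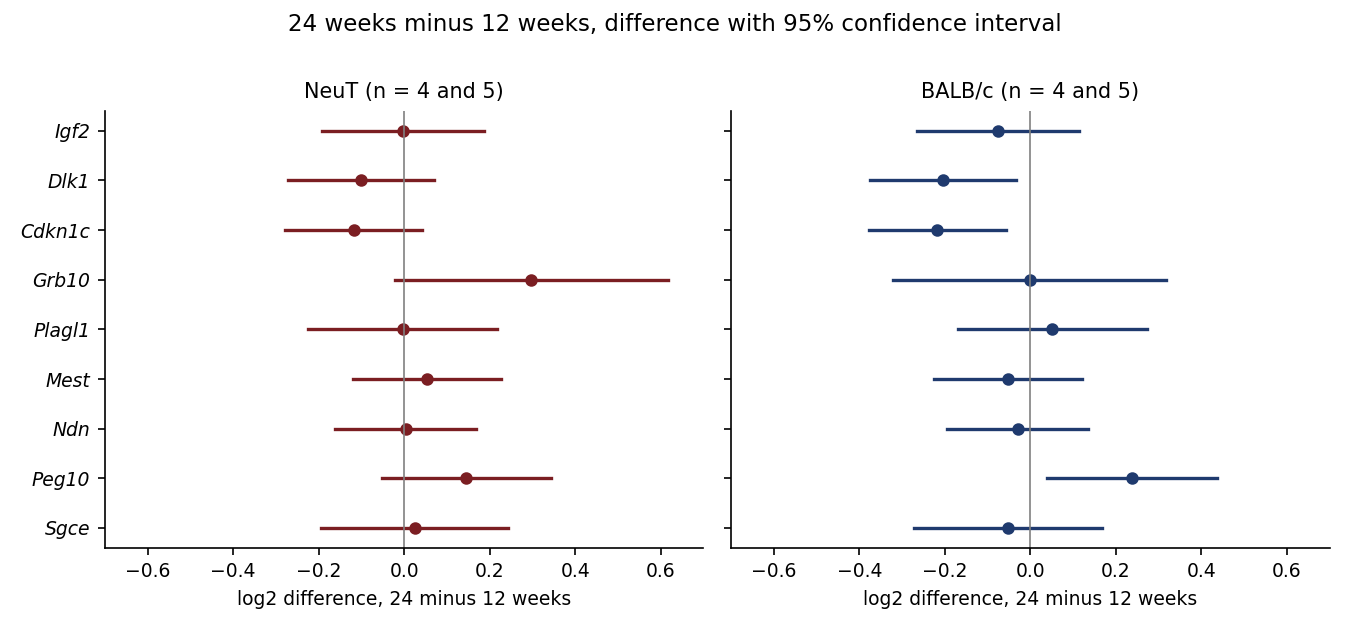
Log2 difference, 24 weeks minus 12 weeks (horizontal axis), of each imprinted growth gene in NeuT (left, n = 4 and 5) and BALB/c preparations (right, n = 4 and 5), with 95% intervals as bars. The intervals of Cdkn1c and Dlk1 lie below 0 and that of Peg10 above 0 in BALB/c before adjustment, and in NeuT all 9 intervals include 0.

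Over all 4 groups at once, limma's F test passed for 0 of 9 genes, against 9.77% of all genes. At an unadjusted p of 0.05 limma's F test passed for Peg10 (adjusted p = 0.0720), Dlk1 (adjusted p = 0.0849) and Cdkn1c (adjusted p = 0.139), 3 of 9, against 28% of all genes. With array weights these 3 passed at an adjusted p of 0.05, where 24.3% of all genes did, and without the 3 arrays of lowest correlation Cdkn1c and Peg10 did, where 10.3% did. The order of group means from high to low was NeuT 24 weeks (9.001), BALB/c 24 weeks (8.89), NeuT 12 weeks (8.86) and BALB/c 12 weeks (8.65) for Peg10. For Dlk1 it was BALB/c 12 weeks (8.17), NeuT 12 weeks (7.98), BALB/c 24 weeks (7.97) and NeuT 24 weeks (7.88). For Cdkn1c it was BALB/c 12 weeks (9.59), NeuT 12 weeks (9.52), NeuT 24 weeks (9.40) and BALB/c 24 weeks (9.37). No neighbours in these orders that were tested differed at the threshold; NeuT of 12 weeks was not tested against BALB/c of 24 weeks.

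Other genes listed as imprinted that lie in the domains of the imprinted growth genes were read next. Whether they are imprinted in these preparations was not tested. Of 31 measured, 2 were higher in NeuT at 12 weeks and 0 lower, where 3.15% of all genes were higher and 0.687% lower. At 24 weeks 0 passed, where 1.18% of all genes were higher and 0.22% lower. The unadjusted p in limma was below 0.05 for 7 of the 31 at 12 weeks, against 21% of all genes. At 24 weeks it was for 3, against 13.2%. Of these Pon3, a lactonase, differed by 0.25 (adjusted p = 0.244) and Atp10a, a phospholipid flippase, by 0.35 (adjusted p = 0.304). The median difference of the 31 genes was -0.050 at 12 weeks and 0.0077 at 24 weeks. Kcnq1ot1, the paternally expressed antisense RNA that silences Cdkn1c and its neighbours in mouse, read 8.58, 8.82, 8.50, 8.97 and 8.57 in NeuT and 8.19, 8.14, 8.26, 8.30 and 8.36 in BALB/c preparations of 12 weeks. The groups did not overlap, and the difference was 0.44 ± 0.11 (SE, limma adjusted p = 0.0236). At 24 weeks it read 8.88, 8.34, 8.36 and 8.79 in NeuT and 8.51, 8.46, 8.396 and 8.70 in BALB/c preparations, a difference of 0.078 (adjusted p = 0.825), and the interaction had an adjusted p of 0.750 in limma.
The sources used here do not say whether the array reads strand, and signal from Kcnq1, which Kcnq1ot1 overlaps, may then be part of the Kcnq1ot1 signal. Kcnq1 itself differed by -0.038 at 12 weeks (limma adjusted p = 0.8465) and by -0.089 at 24 weeks (adjusted p = 0.758). Its share in the Kcnq1ot1 signal was not tested. Ube3a, a ubiquitin ligase imprinted in neurons that lies in the domain of Ndn, read 9.67, 9.58, 9.75, 9.91 and 9.74 in NeuT and 9.55, 9.26, 9.47, 9.43 and 9.48 in BALB/c preparations of 12 weeks without overlap (difference 0.29, limma adjusted p = 0.0268). At 24 weeks the difference was -0.0019 (adjusted p = 0.995). Each of these calls ended in 4 of the 10 fits that left out 1 array of the 12-week groups. For Kcnq1ot1 these were NeuT replicates 2 and 4 and BALB/c replicates 1 and 2 (differences over the 10 fits 0.37 to 0.49, limma adjusted p up to 0.0782). For Ube3a they were NeuT replicates 3 and 4 and BALB/c replicates 2 and 4 (0.25 to 0.33, adjusted p up to 0.0964). With the neutrophil and B-cell covariates, where 0.0205% of all genes passed at 12 weeks, neither passed. The difference in that fit was 0.26 for Kcnq1ot1 (limma adjusted p = 0.640) and 0.35 for Ube3a (adjusted p = 0.437). The Kcnq1ot1 call also ended with all probe sets tested.

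For 24 genes listed as imprinted elsewhere in the genome, imprinting in these preparations was not tested either. Of the 24, 4 were higher in NeuT at 12 weeks and 0 lower. At 24 weeks 3 were higher and 0 lower, beside the shares of higher and lower genes given above. Peg3 and Usp29 are 2 of them at each age, and the others were Gatm, the enzyme that begins creatine synthesis, and Commd1, a copper-handling protein. Gatm read 10.54, 10.48, 10.65, 10.60 and 10.10 in NeuT and 9.86, 9.62, 9.93, 9.76 and 9.71 in BALB/c preparations of 12 weeks. Its groups did not overlap there, and it differed by 0.70 at 12 weeks (limma adjusted p = 0.00308) and by 0.60 at 24 weeks (adjusted p = 0.0338). Both calls ended with the neutrophil and B-cell covariates (differences of 0.38 at 12 weeks and 0.15 at 24 weeks), where 0.0205% and 0.0103% of all genes passed. The 24-week call also ended in 4 of the 8 fits without 1 array of its groups (NeuT replicates 1 and 4, BALB/c replicates 3 and 4). Differences in the 8 fits were 0.49 to 0.71, with limma adjusted p up to 0.1997. That call ended in 6 of 12 other alternatives too, the covariates among them. Commd1 differed by 0.34 at 12 weeks (limma adjusted p = 0.0438) and by 0.16 at 24 weeks (adjusted p = 0.533). Its 12-week call ended in 9 of the 10 fits without 1 array of the 12-week groups (all but NeuT replicate 5). Differences in the 10 fits were 0.26 to 0.41, with limma adjusted p up to 0.136. Over all 18 fits without 1 array, those without a 24-week array included, the call ended in 13. It also ended in 8 of 13 other alternatives.
Of the 17 genes that maintain imprints or modify chromatin there, 0 passed at either age, and the unadjusted p in limma was below 0.05 for 6 at 12 weeks and 3 at 24 weeks, where it was for 21% and 13.2% of all genes. Those with the smallest p at 12 weeks were Tet1, which oxidises methylcytosine (0.34, adjusted p = 0.0520), and Uhrf1, which brings the methylation-maintaining enzyme to newly copied DNA (-0.26, adjusted p = 0.146). At 24 weeks they were Tet2 (0.27, adjusted p = 0.140) and Dnmt3l (0.31, adjusted p = 0.173).

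**Figure D4:**
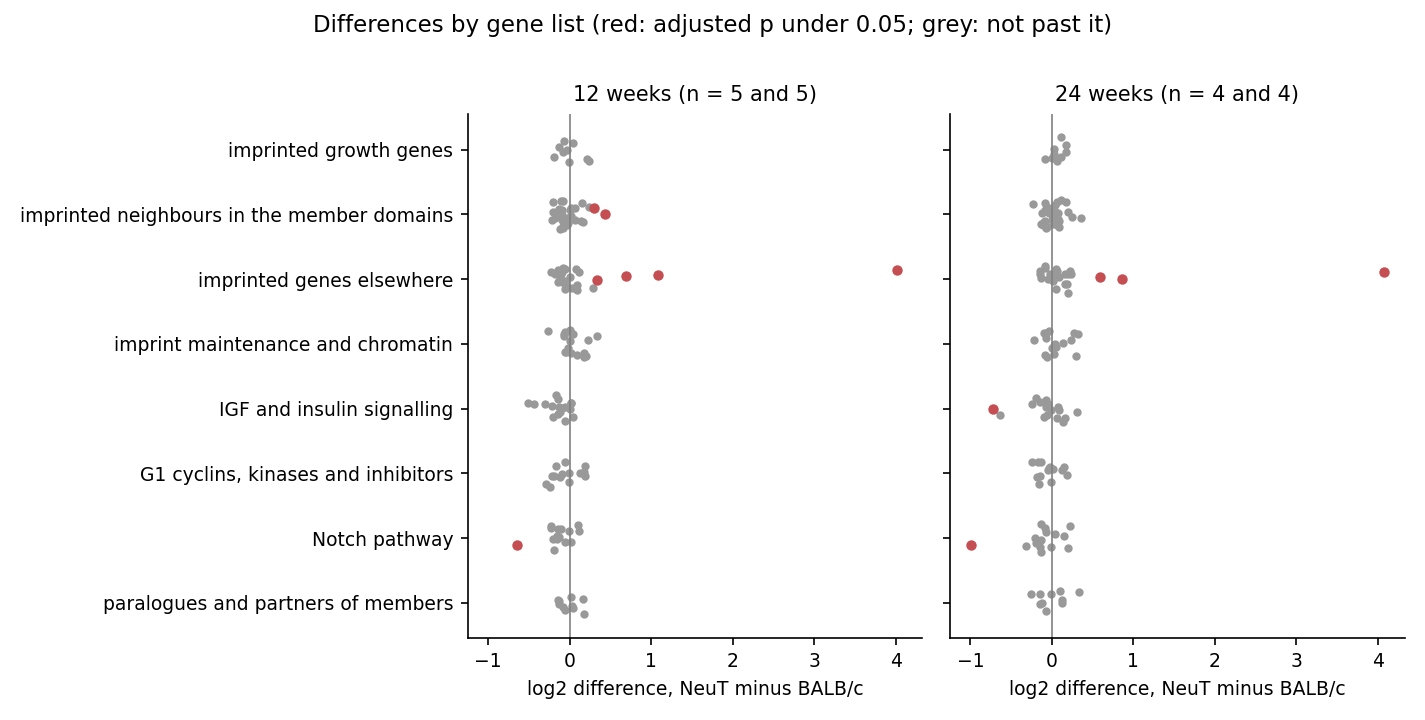
Log2 difference, NeuT minus BALB/c (horizontal axis), of each gene in 8 lists at 12 weeks (left) and 24 weeks (right). Points are genes, red where the adjusted p is under 0.05 and grey otherwise. The points near 4 are Peg3, and no imprinted growth gene is red.

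Among the signalling partners of Igf2 and Grb10, 0 of 17 IGF and insulin pathway genes passed at 12 weeks. The unadjusted limma p was below 0.05 for 4 there (21% of all genes) and for 4 at 24 weeks (13.2%). At the adjusted threshold 1 was lower at 24 weeks, where 0.22% of all genes were lower. This was Irs1, the docking protein of the insulin and IGF1 receptors. It read 7.28, 7.65, 7.88 and 7.39 in NeuT and 8.28, 8.24, 8.20 and 8.39 in BALB/c preparations of 24 weeks, with no overlap, and differed by -0.73 (limma adjusted p = 0.0354). At 12 weeks it differed by -0.52 (adjusted p = 0.0551), and Foxo3, a transcription factor that insulin signalling shuts out of the nucleus, by -0.31 (adjusted p = 0.0557). The Irs1 call at 24 weeks ended in 6 of the 8 fits without 1 array of its groups (all but NeuT replicates 2 and 3, with differences of -0.84 to -0.64 and limma adjusted p up to 0.199). It also ended in 6 of 12 other alternatives. Among them were the neutrophil and B-cell covariates (-0.21), where 0.0103% of all genes passed at 24 weeks.
Of 14 cyclins, kinases and inhibitors of G1, the machinery on which p57 acts, 0 passed at either age, and the unadjusted limma p was below 0.05 for 6 at 12 weeks and 2 at 24 weeks, against the same shares of 21% and 13.2%. Cdkn1b, which encodes the related inhibitor p27, differed by -0.29 at 12 weeks (limma adjusted p = 0.0929) and -0.24 at 24 weeks (adjusted p = 0.345), and the kinase Cdk4 by 0.19 at 12 weeks (adjusted p = 0.0855). Cdk6, its close relative, differed by 0.18 at 24 weeks (adjusted p = 0.281). In the Notch pathway, to which Dlk1 is related, 4 of 15 genes had an unadjusted limma p below 0.05 at each age, against 21% and 13.2%. At the adjusted threshold 1 was lower at each age and 0 were higher. Of all genes 0.687% were lower at 12 weeks and 0.22% at 24 weeks. Dtx1, a Notch target that encodes a ubiquitin ligase, read 8.52, 8.80, 9.09, 8.85 and 9.44 in NeuT and 9.496, 9.64, 9.59, 9.84 and 9.35 in BALB/c preparations of 12 weeks, which overlapped. It differed by -0.64 at 12 weeks (limma adjusted p = 0.0296) and by -0.997 at 24 weeks (adjusted p = 0.0193), and the calls ended in 6 of 10 and 3 of 8 fits without 1 array. These were NeuT and BALB/c replicates 1, 2 and 4 at 12 weeks (-0.77 to -0.54, adjusted p up to 0.0819), and NeuT replicates 1 and 4 and BALB/c replicate 3 at 24 weeks (-1.12 to -0.83, adjusted p up to 0.115). The calls also ended in 3 of 12 other alternatives at 12 weeks and 4 of 12 at 24 weeks, among them the neutrophil and B-cell covariates. Differences with these covariates were -0.30 at 12 weeks and -0.46 at 24 weeks, where 0.0205% and 0.0103% of all genes passed. Of 10 paralogues and partners of the listed genes 0 passed at either age, and the unadjusted limma p was below 0.05 for 0 at 12 weeks and 2 at 24 weeks (21% and 13.2% of all genes). The smallest p were those of the sarcoglycans Sgcb (0.18, adjusted p = 0.265) and Sgca (-0.14, adjusted p = 0.316) at 12 weeks, and of the Grb10 relative Grb7 (-0.25, adjusted p = 0.158) and the necdin relative Maged1 (0.34, adjusted p = 0.2995) at 24 weeks. None of these lists had a gene past the threshold for the interaction or between ages.

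For the 4 listed genes with the highest mean signal, the genes with the most similar pattern over the 18 arrays, after group means were removed, were found by Pearson r over 19504 genes. For Cdkn1c they were Klk1b24 (r = 0.85), Hoxb1 (0.84) and Aqp4 (0.83), and for Igf2 AU016765 (0.89), Neu2 (0.88) and Pfn3 (0.87). For Grb10 they were Zfp628 (0.92), Wars (0.89) and Ska3 (0.89), and for Peg10 Mief1 (0.85), Larp1 (0.84) and Rbm20 (0.83). The 95th percentile of r over all genes was 0.54 for Cdkn1c, 0.62 for Igf2, 0.60 for Grb10 and 0.53 for Peg10, over arrays that share their normalisation. The named genes lie above it by selection, since they were taken as the highest r. Their rank correlation (Spearman rho) ran from 0.68 (Mief1) to 0.89 (Zfp628), and no array was left out of these correlations.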

How the data were processed

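The deposited values are log2 signals, 1 per probe set and array, and per the submitters' processing notes the authors made them with RMA (background correction, quantile normalisation and probe summarisation) and the Transcriptome Analysis Console. The sources used here give no versions, no genome build of the array and no batch. Of 29129 probe sets, 19572 had 1 gene symbol, and for the 55 symbols with several the brightest was kept, which left 19505 genes. The 9557 other probe sets, 5222 negative controls among them, were left out of the tests. Groups follow the labels, and replicates are different mice, of which 1 has differing IDs in its labels.

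A mean per group was fitted to every gene with limma 3.58.1 in R 4.3.3 (14 residual and 8.68 prior degrees of freedom), with two-sided tests, Benjamini-Hochberg adjustment over all genes and a threshold of 0.05. The fit was tested on simulated data. Exact permutation tests over arrays were unadjusted. Their p for a listed gene doubled the smaller tail, while the shares of all genes counted absolute differences of means. With unequal groups, as between ages, the p and the shares are therefore not strictly alike. The genes and lists were chosen with earlier results of these data known. Named from each other list were at most 4 genes per age that passed, taken by size, and where none passed the 2 of smallest p. Leaving out single arrays from correlations was chosen after seeing the data. Other alternatives were other normalisations, filters on dim genes, all probe sets, moderation, array weights, covariates, only the groups compared, fits without the 3 arrays of lowest correlation, and leaving out each array. Plots used matplotlib 3.10.9 (Python 3.11.15).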

Additional observations from a re-analysis of the deposited data

Results flagged for a closer look

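Peg10 on the BALB/c 24-week array of replicate 3 read 8.73 on the log2 scale, far below the other 3 arrays of its group, which read 8.93 to 8.96. It is 1 of 36 groups of values examined, and chance flags about 1 in 20 groups. This array is among the 3 with the lowest correlation to the others.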

How the results depend on the processing

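The count of imprinted growth genes past the threshold was 0 in every contrast and in the F test, and stayed 0 in 171 of the recomputed counts, with 11 exceptions. With array weights it was 2 at 12 weeks (Plagl1, Peg10), 2 between ages in BALB/c (Cdkn1c, Peg10) and 3 in the F test (with Dlk1), where 10.7%, 12.2% and 24.3% of all genes passed. Without the 3 arrays of lowest correlation it was 1, 2 and 2 (4.48%, 6.55% and 10.3%). The neutrophil and B-cell covariates gave 1 in the F test (Peg10; 1.85%), and fits without 1 array gave 0 to 2 in the F test: 1 without NeuT 12-week replicate 4 or BALB/c 12-week replicate 5 (Peg10; 10.2% and 6.84%) and 2 without BALB/c 24-week replicate 3 (Cdkn1c, Peg10; 14.1%). The unadjusted exact permutation test gave 2 between ages in BALB/c (14.4%). The cause of these changes was not tested. The filter on the 95th percentile of the controls left none of the genes, and that on the control median left 7. No paired analysis was possible because the labels give mouse IDs and no replicate numbers that the groups share.

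Of 45 gene and contrast differences, 26 kept their sign in every alternative and 19 did not, none of them past the threshold. Sign changes under a further quantile normalisation were Ndn at 12 weeks 0.024, Cdkn1c at 24 weeks -0.012 and Ndn between ages in BALB/c 0.015. Under cyclic loess they were Ndn at 12 weeks 0.028, Cdkn1c at 24 weeks -0.0073, and between ages in BALB/c Grb10 0.0028 and Ndn 0.011, and under median centring Grb10 0.0082 there. With array weights they were Sgce at 12 weeks -0.032, Grb10 -0.0091 and Ndn -0.043 at 24 weeks, Ndn -0.017 for the interaction, Igf2 0.071 between ages in NeuT, and Grb10 0.21 and Ndn 0.030 in BALB/c. With the neutrophil and B-cell covariates they were Igf2 -0.0017, Cdkn1c -0.14 and Ndn -0.10 at 24 weeks, Plagl1 0.0034 and Ndn -0.014 between ages in NeuT, and Grb10 0.035 in BALB/c, and with the stromal covariate Grb10 0.029 there. Without the 3 arrays of lowest correlation they were Sgce -0.052 at 12 weeks, Grb10 -0.011 and Ndn -0.0072 at 24 weeks, Grb10 -0.0057 for the interaction and Grb10 0.18 between ages in BALB/c.

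Fits without 1 array ranged, at 12 weeks, from -0.049 to 0.031 for Igf2, -0.060 to 0.015 for Ndn and -0.052 to 0.11 for Sgce. At 24 weeks they ranged from -0.027 to 0.082 for Cdkn1c, -0.014 to 0.31 for Grb10, -0.019 to 0.055 for Mest and -0.038 to 0.048 for Ndn, and for the interaction from -0.010 to 0.076 for Ndn. Between ages in NeuT they ranged from -0.056 to 0.039 for Igf2, -0.051 to 0.051 for Plagl1, -3e-04 to 0.081 for Mest, -0.040 to 0.036 for Ndn and -0.047 to 0.12 for Sgce. In BALB/c they ranged from -0.14 to 0.18 for Grb10, -0.0014 to 0.13 for Plagl1, -0.088 to 0.0020 for Mest and -0.072 to 0.013 for Ndn.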
